A study of Mus musculus with 10 samples.

Results

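The genes described here are 10 immediate early and AP-1 genes, taken by their symbols from a table of 56691 genes: Fos, Fosb, Fosl1, Fosl2, Jun, Junb, Jund, Egr1, Ier2 and Ier3. All 10 were found, each in 1 row. RNA-seq measured them in the esophageal epithelium of mice, in 10 libraries: 5 of wild type and 5 of a knockout with the genotype p63CreERT2;Mst1loxp/loxp;Mst2-/-. The Cre recombinase of the knockout mice carries the name of p63, a transcription factor made in the basal layer, and is activated by tamoxifen. It deletes the loxP-flanked Mst1 gene in cells where Cre is active, whereas Mst2 is absent from the germ line on. Tamoxifen (100 mg/kg, 3 doses, every 2 weeks) went to both genotypes, and the tissue for RNA was collected about 8 weeks later. The wild-type group is labelled WT with no Cre allele named, and no age is given. The epithelium had been freed of muscle with forceps and of mesenchyme after Dispase I digestion at room temperature, so every library went through a handling step before lysis. Nothing in the labels ties each library to its own mouse, and the p-values therefore cover only the variation among these samples, which may be technical.

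Immediate early genes are transcribed within minutes of a stimulus, without the need for newly made protein, and their transcripts are short-lived. Fos and Jun proteins pair through leucine zippers to form AP-1, which binds DNA at the sequence TGANTCA, whereas Egr1 is a zinc finger protein that binds GC-rich sites. The signals that induce them include growth factors, wounding, stretch and stress, acting largely through the ERK, JNK and p38 kinases. Cutting and enzymatic digestion of tissue also induce many of them, so their levels in dissected tissue can carry a record of handling. In stratified epithelium AP-1 is known for its part in the transcription of differentiation genes such as involucrin.

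The promoters of 4 members are shown because 3 of these genes (Fos, Junb and Ier3) were called as higher in knockout and Jun was not. The windows run from 250 bases before to 50 bases after the annotated start and come from RefSeq on GRCm38.p6, which is not the build named for the deposited table, mm9. A window was found for 7 of the 10 members, and those of Egr1, Fosl1 and Ier2 are not shown. Capitals mark matches on either strand to TGACG, the core of the cyclic AMP response element (CRE), to TATAAA and to the NF-kB motif.
Fos, chr12:85473640-85473939, plus strand: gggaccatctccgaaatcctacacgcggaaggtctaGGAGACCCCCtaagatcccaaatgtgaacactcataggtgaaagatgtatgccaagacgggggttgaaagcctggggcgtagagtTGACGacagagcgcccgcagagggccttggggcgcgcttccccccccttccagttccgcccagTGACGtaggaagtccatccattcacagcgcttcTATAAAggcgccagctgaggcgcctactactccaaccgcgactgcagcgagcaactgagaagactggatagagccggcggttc
Junb, chr8:84978699-84978998, minus strand: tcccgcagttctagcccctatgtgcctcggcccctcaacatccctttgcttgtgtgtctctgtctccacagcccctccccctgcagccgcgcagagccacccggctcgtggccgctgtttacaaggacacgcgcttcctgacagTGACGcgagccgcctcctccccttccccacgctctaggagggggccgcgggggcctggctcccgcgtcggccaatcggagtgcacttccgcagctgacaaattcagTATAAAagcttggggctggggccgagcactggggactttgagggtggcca
Ier3, chr17:35821463-35821762, plus strand: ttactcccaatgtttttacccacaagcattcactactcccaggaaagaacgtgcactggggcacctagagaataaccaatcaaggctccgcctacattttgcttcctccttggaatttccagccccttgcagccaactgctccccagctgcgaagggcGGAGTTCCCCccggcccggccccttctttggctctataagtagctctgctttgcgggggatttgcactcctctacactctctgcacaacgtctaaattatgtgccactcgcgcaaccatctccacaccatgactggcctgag
Jun, chr4:95052173-95052472, minus strand: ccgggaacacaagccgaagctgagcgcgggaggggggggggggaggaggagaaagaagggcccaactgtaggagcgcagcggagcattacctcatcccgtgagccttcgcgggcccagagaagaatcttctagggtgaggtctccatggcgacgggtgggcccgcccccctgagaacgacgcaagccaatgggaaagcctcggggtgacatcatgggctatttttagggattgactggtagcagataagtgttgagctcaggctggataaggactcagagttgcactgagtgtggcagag

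The Fos window held TGACG at 2 places, TATAAA from 33 to 28 bases before the start and an NF-kB match. Junb held TGACG once and TATAAA at the annotated start itself. The Ier3 window held an NF-kB match from 92 to 83 bases before the start, and the Jun window held no match. The core TGACG was in 3 of the 7 member windows and in 20.9% of 32544 windows of the same length over all genes. The NF-kB motif was in 4 of 7 (Fos, Fosb, Fosl2 and Ier3) against 4.53%, TATAAA in 2 of 7 against 13.6%, and the Egr motif GCGNGGGCG in 2 of 7 (Fosb and Fosl2) against 5.6%. The complete CRE TGACGTCA, the AP-1 motif TGANTCA, the CArG box of serum response factor and the TEAD motif GGAATG had no match in the 7 windows, against 1.8%, 7.79%, 1.64% and 14.6% of all windows. A match is a sequence and not a measured binding site, and TGACG is part of TGACGTCA, so these motifs overlap. Sequence more than 250 bases before the start was not searched, so the lack of a match does not cover sites farther upstream.

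The libraries held 13060000 to 16440000 fragments, as estimated from the deposited values, and 10878 to 11606 genes at 1 FPKM or more (fragments scaled by gene length and library total). Transcript of Stk3, the gene of Mst2, was at 2.08 to 3.48 FPKM in wild type and at 0.05 to 0.25 FPKM in knockout. Transcript of Stk4, the gene of Mst1, was at 17.0 to 22.7 and 12.2 to 17.4 FPKM, and as a whole-gene value it is no check of the loxP deletion. The 10 squamous epithelium markers summed to 66470 to 71480 FPKM in wild type and 63430 to 69720 FPKM in knockout. The level of all 10 fibroblast markers together was 4.47 to 14.1 FPKM in wild type and 0.14 to 1.16 FPKM in knockout, with Dcn the one marker reaching 1 FPKM and Col1a2 and Pdgfrb at 0 in every library. The 10 muscle markers summed to at most 1.08 FPKM and the 10 endothelial markers to at most 0.39 FPKM in any library. Of the 10 squamous markers 2 fell in knockout by limma (20%), against 4.96% of all tested genes. These were Trp63 (38.8 ± 5.46 and 22.6 ± 3.58 FPKM) and Krt78 (732 ± 124 and 392 ± 165 FPKM; SD, n = 5 and 5). In such bulk samples, fewer cells of a type and less RNA per cell cannot be told apart.

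Of the 10 members, 4 rose in knockout, none fell, 4 did not pass the test, and 2 (Fosb and Fosl1) missed the filter of at least 1 FPKM in at least 5 libraries. Those that rose were Egr1, Fos, Ier3 and Junb. Over all genes, 900 of 11386 rose (7.9%) and 565 fell (4.96%), so 4 of the 8 tested members stand against that background (limma on log2(FPKM + 1), adjusted p under 0.05). Their median log2 fold change was 0.45, against 0.06 over all tested genes. Without single libraries the count of 4 became 3 (wild type 2), 2 (wild type 1 or 3) or 1 (wild type 5, knockout 2, 3 or 5), with Ier3 called each time. Groups without any overlap, higher in knockout, were seen for 1 tested member, Ier3, and for 6.62% of all tested genes.

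**Figure D1:**
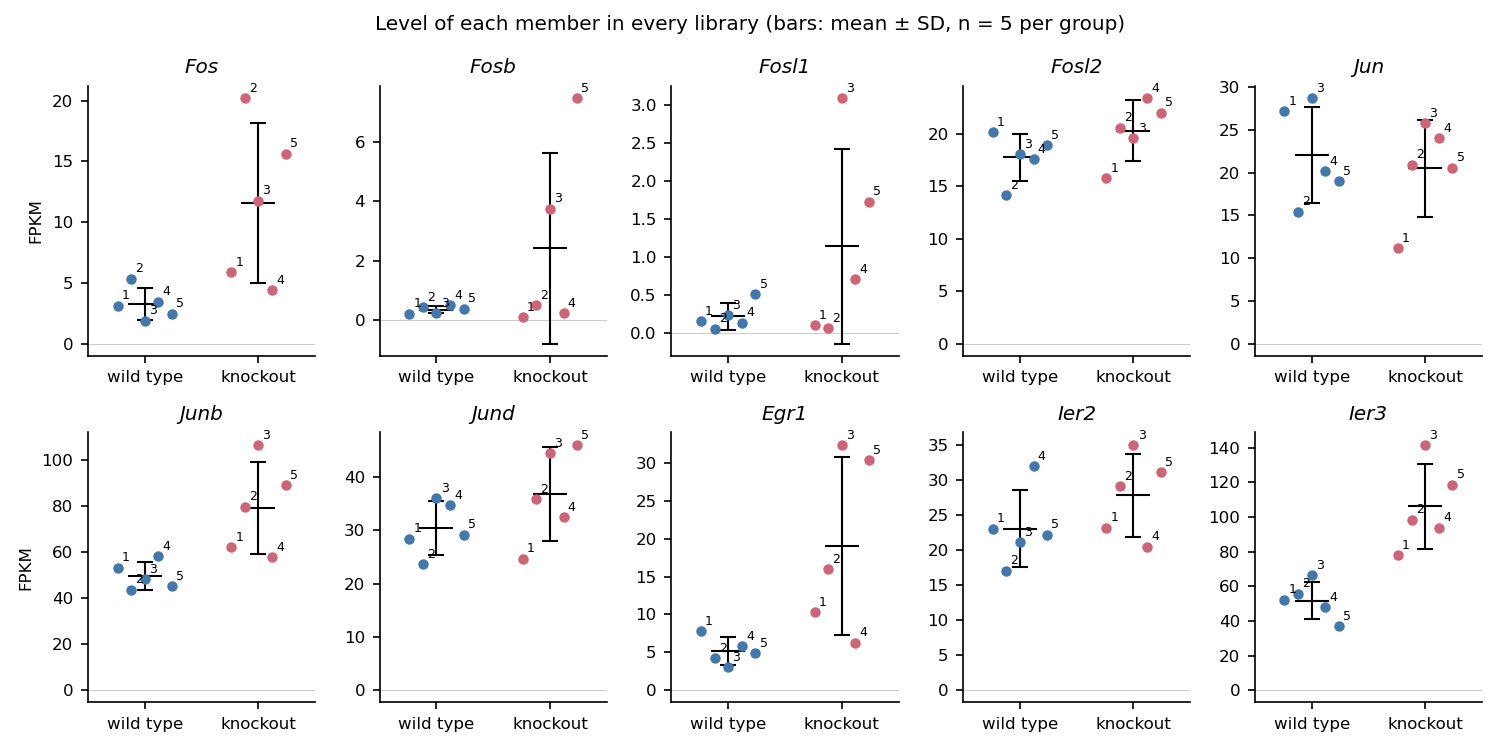
Level of the 10 members in FPKM (vertical axes from 0 upwards) in each library, in 1 panel per gene. Points carry the library number within the genotype, blue for wild type and red for knockout, with mean ± SD (n = 5 and 5). Knockout 3 and 5 are the highest libraries for Fosb, Fosl1, Egr1, Junb, Jund and Ier3, whereas the Jun points of the genotypes overlap.

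Fos, the founding AP-1 subunit and a classic response gene to growth factors, was at 3.13, 5.34, 1.89, 3.46 and 2.48 FPKM in wild type 1 to 5. In knockout 1 to 5 it was at 5.86, 20.2, 11.8, 4.40 and 15.6 FPKM. Thus 4 of the 5 knockout libraries lay above every wild-type library, and knockout 4 lay below wild type 2. The means were 3.26 ± 1.31 and 11.6 ± 6.61 FPKM (SD, n = 5 and 5), a ratio of 3.55, and the log2 fold change was 1.43 (SE 0.37; adjusted p = 0.0305 by limma). In GENCODE M21 exon lengths, these values stand for about 64 to 197 fragments in wild type and 143 to 672 fragments in knockout. The call did not hold when single libraries were left out: the limma adjusted p was 0.0675 without wild type 1, 0.0590 without wild type 3, 0.0779 without wild type 5, 0.0524 without knockout 2, 0.0668 without knockout 3 and 0.0726 without knockout 5.

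Fosb, another inducible relative of Fos, was near the floor in 8 libraries. It was at 0.21, 0.42, 0.22, 0.50 and 0.38 FPKM in the wild-type libraries, and at 0.09, 0.50, 3.75, 0.23 and 7.47 FPKM in knockout 1 to 5. Knockout 3 and 5 were therefore far above the rest, with about 324 and 702 fragments against at most 45.2 in any other library. Fosl1, which encodes Fra-1, showed the same 2 libraries on top, with 0.16, 0.06, 0.24, 0.14 and 0.51 FPKM in the wild-type libraries and 0.11, 0.07, 3.09, 0.71 and 1.73 FPKM in knockout. Here knockout 4 also lay above every wild-type value. Of the exon bases of Fosl1, 57.2% lie opposite exons of Ccdc85b, a gene on the other strand measured at 1.14 to 2.19 FPKM, and the use of strand in counting is not given in the sources used here. Neither Fosb nor Fosl1 was tested in the comparison, and without the filter neither passed (limma adjusted p = 0.434 and 0.381).

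Fosl2, which encodes Fra-2, had the highest FPKM of the Fos family, a per-length scale, in all 10 libraries. In 8 of them it made up more FPKM than the rest of the family together. It was at 14.2 to 20.1 FPKM in wild type and 15.8 to 23.4 FPKM in knockout, with overlapping groups. The log2 fold change was 0.18 (SE 0.12) and did not pass (limma adjusted p = 0.364). The share of the summed Fos family FPKM that came from Fosl2 was 82.1% ± 6.80 in wild type and 60.4% ± 15.5 in knockout (SD, n = 5 and 5), and that of Fos was 15.3% ± 6.87 and 31.03% ± 12.1. By library, the Fosl2 share was 85.2%, 70.9%, 88.5%, 81.1% and 84.9% in wild type and 72.2%, 49.8%, 51.3%, 81.4% and 47.0% in knockout. In this share knockout 1 and 4 lay within the wild-type range, and knockout 2, 3 and 5 below it.

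**Figure D2:**
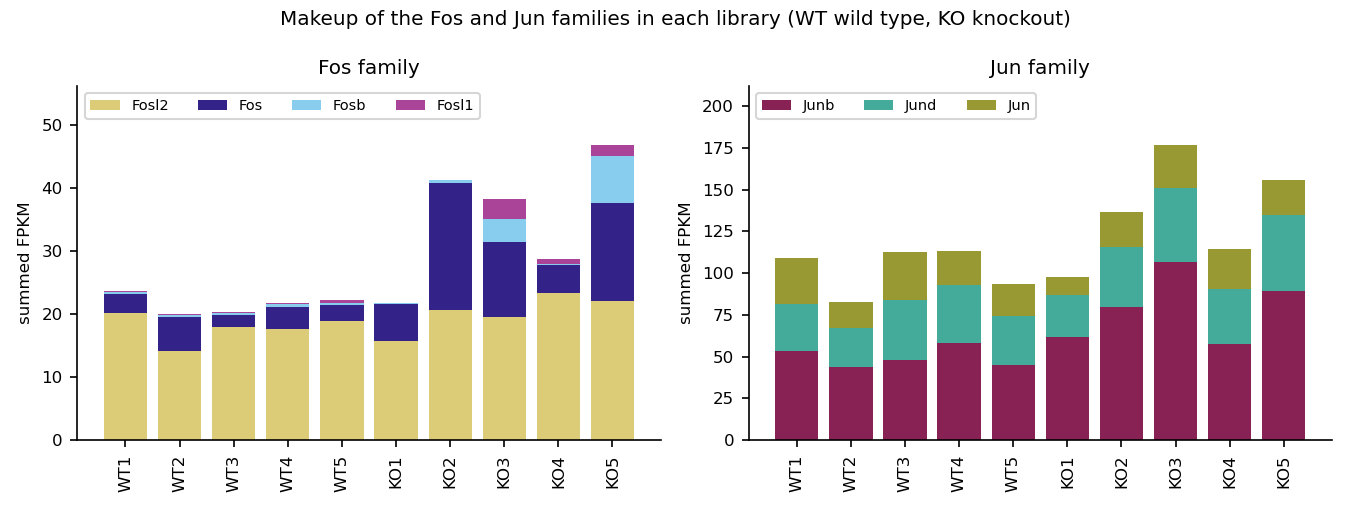
Summed FPKM of the Fos family (left) and the Jun family (right) in each library, WT1 to WT5 for wild type and KO1 to KO5 for knockout, stacked by gene from 0. The Fos family sum was 19.98 to 23.6 FPKM in wild type and 21.8 to 46.9 FPKM in knockout. The Fos layer is thicker in KO2, KO3 and KO5 than in wild type, and Fosb and Fosl1 layers are visible in KO3 and KO5.

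The Jun genes supply the partner that every Fos protein needs for AP-1, and 1 of the 3 rose. Junb was at 53.2, 43.6, 48.1, 58.3 and 45.2 FPKM in the wild-type libraries and at 62.1, 79.6, 106, 57.8 and 89.1 FPKM in knockout 1 to 5. Knockout 4 lay just below wild type 4, and the other 4 knockout libraries lay above every wild-type library. The means were 49.7 ± 6.04 and 79.0 ± 19.95 FPKM (SD, n = 5 and 5), and the fitted log2 difference was 0.63 (SE 0.16; adjusted p = 0.0278 by limma). The limma adjusted p was 0.0509 without wild type 1, 0.0714 without wild type 5, 0.0524 without knockout 2, 0.0561 without knockout 3 and 0.0711 without knockout 5. Under quantile normalization Junb was not called either (limma adjusted p = 0.0562), and with no filter on low values Fos, Junb and Egr1 were not (0.0674, 0.0741 and 0.0743). Junb shares 7.52% of its exon bases with Prdx2 on the opposite strand, a gene at 73.0 to 126 FPKM whose lowest library was knockout 3, the library where Junb was highest.

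Jun, the founding member of its family and a target of the JNK kinases, had overlapping groups. It was at 27.2, 15.4, 28.7, 20.2 and 19.0 FPKM in the wild-type libraries and at 11.2, 20.9, 25.8, 24.0 and 20.6 FPKM in knockout. The lowest value was in knockout 1 and the highest in wild type 3, and the log2 fold change was -0.12 (SE 0.22; adjusted p = 0.760 by limma). Jund, the member with the most constant expression in many tissues, was at 23.7 to 36.0 FPKM in wild type and at 24.7, 35.9, 44.6, 32.5 and 46.1 FPKM in knockout 1 to 5. Its knockout 3 and 5 lay above the wild-type range, but the log2 fold change of 0.25 (SE 0.17) did not pass (limma adjusted p = 0.366). The share of Jun family FPKM from Junb was 42.7% to 52.7% over the wild-type libraries and 50.6% to 63.4% over the knockout libraries.

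Egr1, a zinc finger transcription factor induced by the same signals as Fos, had a fold change close to that of Fos. It was at 7.84, 4.21, 3.02, 5.82 and 4.88 FPKM in the wild-type libraries and at 10.3, 15.95, 32.4, 6.28 and 30.4 FPKM in knockout 1 to 5. Knockout 3 and 5 were about equal and far above the rest, and knockout 4 alone fell within the wild-type range. The means were 5.15 ± 1.82 and 19.1 ± 11.8 FPKM (SD, n = 5 and 5), a ratio of 3.70, and the log2 fold change was 1.53 (SE 0.41; adjusted p = 0.0348 by limma). In knockout 1, 2 and 4 the mean was 10.9 FPKM, a ratio of 2.11 to wild type, and in knockout 3 and 5 the ratio was 6.10. The limma adjusted p was 0.0526 without wild type 2, 0.0674 without wild type 3, 0.0793 without wild type 5, 0.0655 without knockout 2, 0.0707 without knockout 3 and 0.0780 without knockout 5.

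Ier3, a stress-induced gene linked to cell survival and a known NF-kB target, had the highest mean FPKM, a per-length scale, and was the one tested member whose groups did not overlap. In wild type 1, 4 and 5 Junb was higher. It was at 52.2, 55.7, 66.4, 47.8 and 36.8 FPKM in the wild-type libraries and at 77.9, 98.5, 142, 93.9 and 119 FPKM in knockout 1 to 5. The lowest knockout library lay above the highest wild-type library, and knockout 3 and 5 were again on top. The means were 51.8 ± 10.8 and 106 ± 24.7 FPKM (SD, n = 5 and 5), and the fitted log2 difference was 1.02 (SE 0.18; adjusted p = 0.00383 by limma). Its call held without each of the 10 libraries, at a limma adjusted p of 0.00297 to 0.0127. Ier2, a nuclear immediate early gene, was at 17.1 to 32.0 FPKM in wild type and 20.5 to 35.1 FPKM in knockout. Those groups overlapped almost fully, and the log2 fold change of 0.26 (SE 0.18) did not pass (limma adjusted p = 0.343).

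**Figure D3:**
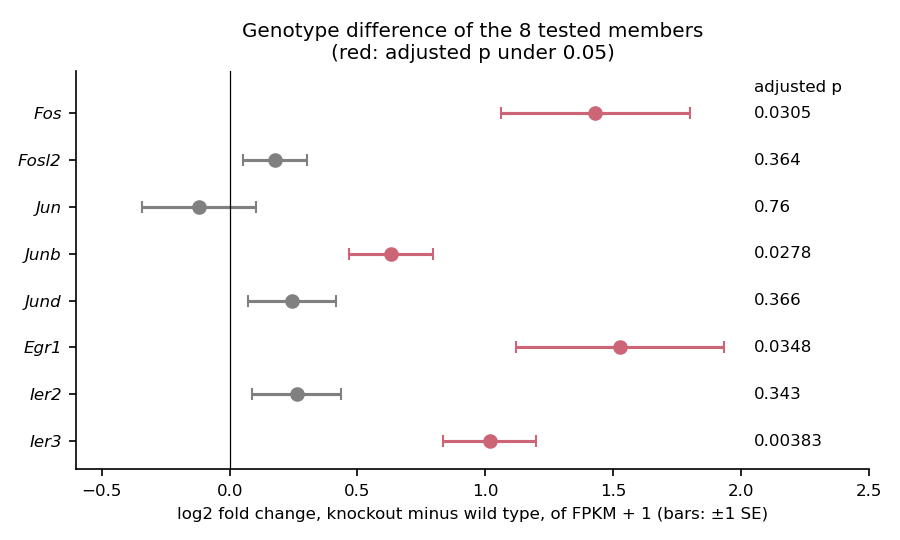
Log2 fold change (knockout minus wild type, of FPKM + 1) of the 8 tested members, with bars of 1 SE and the limma adjusted p at the right. The red points Fos, Junb, Egr1 and Ier3 are past 0.05, and Jun is the one member left of 0.

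By mean level the members stood in the same order in both genotypes: Ier3, Junb, Jund, Ier2, Jun, Fosl2, Egr1, Fos, Fosb and Fosl1. Most neighbours in this order overlapped in their ranges. In wild type the ranges were apart for Junb over Jund, Fosl2 over Egr1 and Fos over Fosb, and in knockout for Junb over Jund alone. The coefficient of variation between knockout libraries was 133% for Fosb, 112% for Fosl1, 61.8% for Egr1, 57.2% for Fos and 14.3% for Fosl2. Among wild-type libraries the same values were 36.8%, 78.1%, 35.2%, 40.2% and 12.6%. For the other 5 members the wild-type values spanned 12.2% to 25.5% and the knockout values 21.3% to 27.6%, and for Ier2 it was lower in knockout (21.3%) than in wild type (23.7%). Knockout 3 was the highest library for 5 members and knockout 5 for 2. Each was above every wild-type library for 8 of the 10 members, but not for the same 8. The exceptions were Fosl2 and Jun for knockout 3, and Jun and Ier2 for knockout 5. Knockout 1 was above all wild-type libraries for 4 members, knockout 2 for 5 and knockout 4 for 3. Without knockout 3 and 5, a comparison chosen after the values were seen, limma called 1 member, Ier3 (log2 fold change 0.81, SE 0.18; adjusted p = 0.0310). The log2 fold changes of Fos, Egr1 and Junb were then 1.17, 0.91 and 0.41 (limma adjusted p = 0.152, 0.115 and 0.139).

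**Figure D4:**
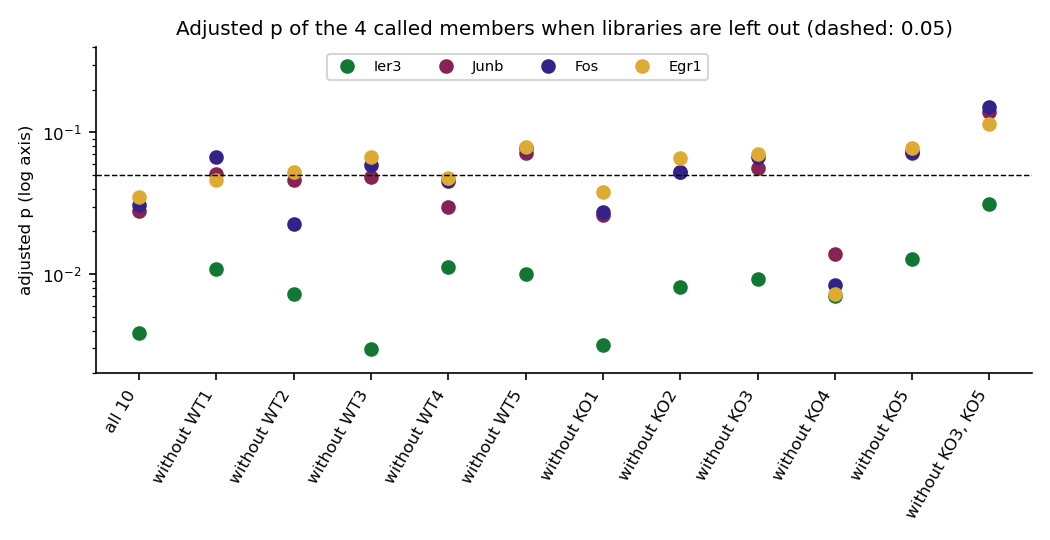
Limma adjusted p (log axis) of the 4 called members with all 10 libraries, without each library, and without KO3 and KO5 together (WT wild type, KO knockout). Ier3 stays below the dashed line at 0.05 in every case shown, at 0.00297 to 0.0310, and Fos, Junb and Egr1 cross it in several.

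With the genotype means removed, most members also varied together over the 10 libraries taken as 1 set. With each gene centred on its genotype mean, 26 of the 28 pairs of tested members had a positive Pearson correlation over the 10 libraries, with a median of 0.51. The closest pairs were Junb with Ier2 (0.90) and Junb with Egr1 (0.89), followed by Fosl2 with Jun (0.79). Fos had values of -0.01 with Jun and -0.11 with Fosl2. These correlations share library depth and scaling and are descriptions. The genes most like the mean of the centred members were Zfp36 (Pearson 0.92, Spearman 0.95), Phlda1 (0.90 and 0.92), Rbfa (0.88 and 0.94), Blnk (0.86 and 0.66), Tox4 (0.86 and 0.93) and Tsg101 (0.85 and 0.76), over 10 libraries and picked as the highest of the tested genes with a mean of at least 5 FPKM. Tsg101 shares 0.260 of its 31-base sequences with other genes, so its value is uncertain. Without knockout 1 and 4, the libraries farthest from the median, their Pearson values were 0.76 to 0.88.

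Zfp36, which encodes an RNA-binding protein that speeds the decay of short-lived transcripts, rose with the members. It was at 15.3, 10.7, 13.1, 17.4 and 13.0 FPKM in the wild-type libraries and at 16.01, 23.5, 26.8, 20.1 and 25.8 FPKM in knockout. Knockout 1 lay below wild type 4, and the log2 fold change was 0.65 (SE 0.16; adjusted p = 0.0196 by limma). The limma call was lost without wild type 5 and without knockout 5, with a highest adjusted p of 0.0531. Of 43 further immediate early genes, 34 were tested, 8 rose (Arc, Cebpb, Klf10, Mcl1, Phlda1, Plk2, Trib1 and Zfp36) and 1 fell (Btg1), with a median log2 fold change of 0.21 against 0.06 over all tested genes. Plk2, a polo-like kinase gene, rose from 15.7 ± 3.02 to 26.7 ± 5.51 FPKM (SD, n = 5 and 5; adjusted p = 0.0124 by limma), and Mcl1, a survival gene of the Bcl2 family, from 59.0 ± 5.35 to 80.6 ± 9.12 FPKM. Klf10, a Krüppel-like factor gene induced by TGF-beta, rose from 18.8 ± 3.22 to 26.8 ± 3.63 FPKM. Plk2 was called without each library in turn. Mcl1 was not called without wild type 1 or 5 or knockout 3 or 5 (limma adjusted p up to 0.0670), and Klf10 not without wild type 1 or 5 or knockout 1, 4 or 5 (up to 0.0816). Arc, named after its values were seen, was at 0 to 0.20 FPKM in wild type and at 1.63, 1.11, 15.1, 1.21 and 6.91 FPKM in knockout 1 to 5, so knockout 3 and 5 again stood on top. Arc met the filter only through the knockout group, so its entry into the test depended on the difference being tested. Its call was lost without wild type 1, 3 or 5 or knockout 5 (limma adjusted p up to 0.0760).

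Other familiar response genes did not pass the test. Atf3 was at 0.46 to 1.54 FPKM in wild type and 1.03 to 7.34 FPKM in knockout (limma adjusted p = 0.0787), and Dusp1, the phosphatase that switches off MAP kinases, at 10.4 to 18.4 and 12.4 to 25.3 FPKM (limma adjusted p = 0.265). Klf4, a differentiation factor of the upper layers, was at 109 to 204 and 95.8 to 284 FPKM, with knockout 3 highest, and Myc at 15.4 to 42.3 and 27.6 to 39.9 FPKM (limma adjusted p = 0.770 and 0.517). Among 34 tested further immediate early genes, the count of 8 is 23.5%, read against the 7.9% of all tested genes. That count includes Arc, which passed the filter only through knockout. Without wild type 5, without knockout 5 or without knockout 3 and 5 together, 1 gene of this list was called, and without wild type 1 and without knockout 3 the counts were 3 and 5.

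Heat shock genes encode chaperones and, like immediate early genes, are known to respond to stress on cut tissue. Of 18 tested, 8 rose (Dnaja1, Dnajb1, Hsp90aa1, Hspa4, Hspd1, Hspe1, Hsph1 and Stip1) and 1 fell (Hspa2), against 7.9% and 4.96% of all tested genes, with a median log2 fold change of 0.38. Dnajb1, a co-chaperone of Hsp70, was at 53.5, 67.8, 60.3, 56.0 and 47.5 FPKM in the wild-type libraries and at 99.7, 94.4, 71.8, 90.5 and 104 FPKM in knockout, so knockout 3 was the lowest knockout library. The stress-inducible Hsp70 gene Hspa1a was at 7.46 to 15.4 FPKM in wild type and at 11.9, 14.7, 6.63, 17.6 and 16.3 FPKM in knockout, with the lowest value of all libraries in knockout 3, and did not pass (limma adjusted p = 0.648). Its neighbour copy Hspa1b was at 31.9 to 53.9 and 49.8 to 72.9 FPKM (limma adjusted p = 0.0591). The mean log2 level of the list was 4.55, 4.58, 4.72, 4.85 and 4.48 in wild type and 5.05, 5.10, 4.79, 4.96 and 5.14 in knockout. Knockout 5 was thus the highest library for the heat shock list and near the top for the members, whereas knockout 3 was the highest for 5 of the 10 members and the lowest knockout library for heat shock genes, inside the wild-type range. Hsp90aa1, Hspd1, Hspe1, Hspa1a and Hspa1b share 0.248 to 0.680 of their 31-base sequences with other genes, so their values are uncertain. Counts of called heat shock genes were 3 without wild type 1, 4 without wild type 5 or without knockout 1, and 5 without knockout 5. Hspa2 reached 1 FPKM in wild type 1, 2, 4 and 5 and in knockout 5 alone, so it met the filter mainly through wild type.

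**Figure D5:**
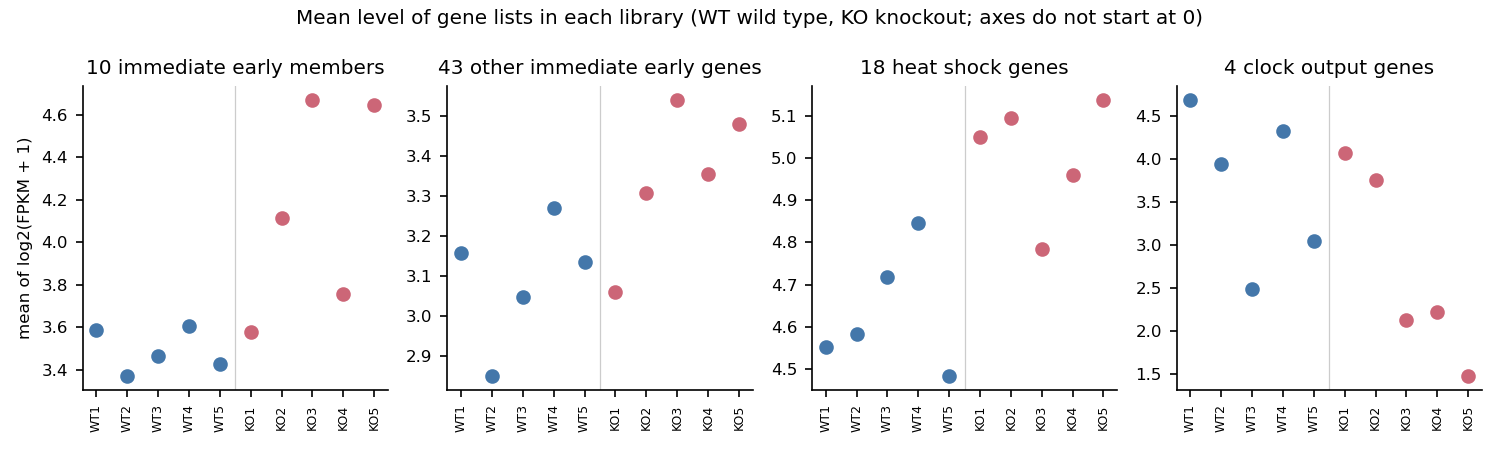
Mean of log2(FPKM + 1) of 4 gene lists in each library (WT1 to WT5 wild type in blue, KO1 to KO5 knockout in red; the vertical axes differ and do not start at 0). KO3 and KO5 are highest for the members, at 4.67 and 4.65, whereas KO3 is the lowest knockout library for the heat shock genes, at 4.79, and KO5 the lowest of all for the clock output genes, at 1.48.

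With the mean heat shock level as a covariate, limma called none of the members (4 without it), and 48 genes rose and 54 fell over all tested genes. The log2 fold changes of the members called without it were 1.06 for Ier3 (SE 0.33), 1.16 for Fos, 1.78 for Egr1 and 0.63 for Junb, with limma adjusted p-values of 0.267 to 0.717. The SE was 0.68 for Fos and 0.75 for Egr1 with the covariate, against 0.37 and 0.41 without it. Every knockout library but knockout 3 had a heat shock level above all wild-type libraries, so this covariate and the genotype can hardly be told apart. Whether handling of the tissue plays a part in the levels of the members was not tested.

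The summed fibroblast markers did not overlap between the genotypes, and the mean log2 level of the fibroblast, muscle and endothelial markers was also used as a covariate. Limma then called none of the members, with log2 fold changes of 0.29 for Ier3 (SE 0.35), 0.90 for Fos, 1.29 for Egr1 and 0.50 for Junb and adjusted p-values of 0.907 to 0.938. Of these markers Dcn carries most of the separation (8.59 ± 3.93 and 0.308 ± 0.459 FPKM; SD, n = 5 and 5), whereas the muscle and endothelial sums overlapped between the genotypes. The level of Dcn and the genotype cannot be told apart in these libraries.

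The clock output genes Dbp, Nr1d1, Per3 and Tef, whose transcripts swing over the day, also differed between libraries. Dbp was at 22.6, 12.04, 1.25, 16.4 and 1.73 FPKM in the wild-type libraries and at 14.5, 8.45, 0.84, 0.56 and 0.38 FPKM in knockout, so the libraries fall into 5 above and 5 below 5 FPKM. In the libraries above (wild type 1, 2 and 4, knockout 1 and 2) the log2 difference between genotypes was 1.30 for Fos, 1.03 for Egr1, 0.75 for Ier3 and 0.45 for Junb. In those below (wild type 3 and 5, knockout 3, 4 and 5) it was 1.72, 2.02, 1.22 and 0.80. Fosb and Fosl1 had differences of -0.10 and -0.04 in the first class and 1.501 and 0.97 in the second. With the clock genes as a covariate, 1 member was called, Ier3 (limma adjusted p = 0.0152), and Fos, Junb and Egr1 had adjusted p-values of 0.0523, 0.0639 and 0.0760. The part of the time of day in these values was not tested.

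Of the more abundant markers of immune cells, S100a8, S100a9 and Cd68 were highest in knockout 3 and 5, whereas Cxcr2 and Cd74 were not. Cd68 was at 4.17 to 11.4 FPKM in wild type and at 7.37, 8.43, 16.6, 11.75 and 13.05 FPKM in knockout 1 to 5. It did not pass (limma adjusted p = 0.0787). Cxcr2 was at 1.41 to 8.04 FPKM in wild type and at 8.46, 3.55, 1.35, 1.35 and 2.00 FPKM in knockout 1 to 5. Cd74 was highest in wild type 5. The 10 markers of T cells and neutrophils summed to 45.4 to 229 FPKM in wild type and 101 to 1396 FPKM in knockout, almost all of it S100a8 and S100a9. S100a9, which stressed keratinocytes also make, was at 41.5, 63.1, 143, 188 and 79.1 FPKM in the wild-type libraries and at 160, 82.7, 932, 439 and 858 FPKM in knockout, highest in knockout 3 and 5, and did not pass (limma adjusted p = 0.0943). Apart from S100a8, S100a9 and Cxcr2, the markers of this list were at no more than 0.45 FPKM, and the neutrophil marker Ly6g was at 0 in every library. The 10 macrophage and Langerhans cell markers summed to 11.5 to 41.6 and 14.3 to 31.8 FPKM. Of these markers 6 reached 1 FPKM in some library, and Cd68 and Cd74 were the highest in every library. By mean level Cd74 led among the wild-type libraries (13.97 against 6.63 FPKM) and Cd68 among the knockout libraries (11.45 against 9.76 FPKM). The part of these cells in the member levels was not tested.

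Of 14 tested partners and regulators of AP-1, 1 rose and none fell, a share of 7.14% that is near the 7.9% of all tested genes that rose. Atf1, a CREB family factor, was at 7.83 to 10.5 FPKM in wild type and 11.7 to 14.0 FPKM in knockout, without overlap (log2 fold change 0.46, SE 0.10; limma adjusted p = 0.0110). The count of this list was 2 without wild type 2, and Atf1 was called without each library in turn. Maf, a large Maf family factor, was at 4.48 to 9.10 and 3.88 to 7.68 FPKM and the repressor Bach1 at 5.76 to 9.08 and 4.86 to 7.14 FPKM, and neither passed (limma adjusted p = 0.222 and 0.261). Of 24 tested genes of the kinases and factors that induce immediate early genes, none passed by limma, and 3 had an unadjusted p under 0.05. Srf, the serum response factor that drives Fos and Egr1 transcription, was at 8.72 to 10.3 FPKM in wild type and at 10.1, 10.8, 14.9, 10.5 and 15.5 FPKM in knockout 1 to 5, so knockout 3 and 5 were the high libraries here as well (log2 fold change 0.37, SE 0.13; limma adjusted p = 0.0788). The kinase gene Map2k1 was at 35.5 to 51.5 and 47.0 to 54.6 FPKM, Rps6ka3 at 17.4 to 20.3 and 19.7 to 23.7 FPKM, and Nab2, a corepressor of Egr1, at 8.74 to 10.6 and 8.70 to 15.8 FPKM.

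Of 28 genes listed as AP-1 targets, 15 were tested, 2 rose, 2 fell and 11 did not pass. That is 13.3% in each direction, against 7.9% higher and 4.96% lower over all tested genes. Sprr1a, a cornified envelope precursor, was at 235 to 403 FPKM in wild type and at 770, 828, 2291, 1392 and 1713 FPKM in knockout 1 to 5, with knockout 3 and 5 highest (log2 fold change 1.94, SE 0.29; limma adjusted p = 0.00129). Hbegf, an EGF receptor ligand that is itself induced by wounding, was at 6.69, 8.41, 7.08, 5.06 and 3.71 FPKM in the wild-type libraries and at 13.8, 18.1, 43.7, 13.9 and 34.1 FPKM in knockout. No knockout library of Hbegf overlapped wild type, and the log2 fold change was 1.73 (SE 0.33; adjusted p = 0.00661 by limma). Ivl, involucrin, fell from 2.45 ± 1.79 to 0.512 ± 0.432 FPKM (SD, n = 5 and 5; adjusted p = 0.0416 by limma), and the call was lost without wild type 1, 3 or 5 and without knockout 1, 2, 4 or 5, at an adjusted p of up to 0.0909. The chromatin protein gene Hmga1 also fell, from 12.2 ± 1.32 to 5.86 ± 4.01 FPKM (adjusted p = 0.0487 by limma). It was at 11.4 and 8.72 FPKM in knockout 3 and 5, and no higher than 3.64 FPKM in knockout 1, 2 and 4. Hmga1 shares 0.621 of its sequences with other genes, so its value is uncertain, and its call was lost without 8 of the 10 libraries, each in turn. The target list had 2 called genes without wild type 1, wild type 5, knockout 1, knockout 2 or knockout 4.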

How the data were processed

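The 10 libraries were sequenced from both fragment ends, per the labels' protocols. The authors deposited 1 table of FPKM values (fragments scaled by gene length and library total, 2 decimals), and the submitters' processing notes name mm9 as the build and, as tools, HTSeq 0.6.1, HISAT2 2.0.1 and cutadapt. Their settings, the annotation release and the use of strand were not given in the sources used here. Groups come from the sample titles. Fragment totals were estimated by finding the total at which values of single-exon genes up to 1200 bases (GENCODE M21) become whole within 0.01 fragments beyond rounding, which held for 98.2% to 98.7% of values against 9.17% to 10.9% by chance. Fragments per gene are estimates, since the authors' gene lengths are not given.

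Values were tested as log2(FPKM + 1), a scale that understates changes of low genes, with limma 3.58.1 in R 4.3.3 (genotype only, empirical Bayes with trend and robust estimation, Benjamini-Hochberg over 11386 genes that reached 1 FPKM in 5 libraries or more, threshold 0.05). Fold changes are knockout minus wild type. On simulated data with normal noise and 200 changed genes, limma recovered 35.4% of changes of log2 0.5, 84.1% of log2 1 and 97.3% of log2 2. Of its calls 5.1% were false. Small changes are thus often missed, and a gene that did not pass is not shown to be unchanged. The members and gene lists were chosen with earlier results of these data known, and no list was tested as a set. Named genes were all members, up to 4 genes of each related list by smallest p and 10 further genes whatever their p. The rule also named the targeted genes, the most abundant marker of each other cell type and the 6 genes most like the members. Arc, S100a8, Cxcr2, Cd68, Ly6g, Col1a2, Pdgfrb, the overlapping genes and the other genes given in counts of calls were named after their values were seen. A gene that this rule names is not reported here. Motifs were searched on both strands of RefSeq windows, and TGACG was added after the windows were seen. Python 3.11.15, numpy 2.4.6, pandas 2.3.3 and matplotlib 3.10.9 were used. The alternatives were other pseudocounts, filters, scalings and variance settings, the replicate number as a block, covariates, and leaving out libraries.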

Additional observations from a re-analysis of the deposited data

Results flagged for a closer look

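Of 112 groups of 5 libraries (56 named genes in each genotype), 4 held a library whose distance to its nearest neighbour was more than 0.71 of the whole range of the group, and chance alone gives about 1 in 20. None of the 20 groups of the members was among them. Myc was at 39.9 FPKM in knockout 3 against 30.1 FPKM in the next knockout library. Maf was at 4.48 FPKM in wild type 2 against 7.82 FPKM in the next wild-type library. Dcn, the fibroblast proteoglycan decorin, was at 1.12 FPKM in knockout 4 against 0.22 FPKM, and the muscle marker Tagln at 0.85 FPKM in knockout 1 against 0.44 FPKM.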

How the results depend on the processing

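The direction of the called members did not change under any alternative run. With no filter on low values, limma called 1 member, 1 further immediate early gene, 3 heat shock genes and 2 targets, and 511 genes rose over all tested. Median ratio scaling left 5 further immediate early genes, quantile normalization 5 heat shock genes and 3 members (without Junb), and a filter at 5 FPKM 329 genes that fell. Of all calls, 61.4% were higher in knockout, against 50.8% with median ratio scaling and 47.8% with quantile normalization. Sample weights gave 2 partners, 1 input gene and 1390 genes that rose. With the mean heat shock level as a covariate the counts were 0 for the members and each list, with 48 genes higher and 54 lower, and the Jun log2 fold change turned to 0.050. For the heat shock list the covariate was the mean of that list itself, so its count says nothing further. With the fibroblast, muscle and endothelial markers the counts were 0 likewise, with 23 higher and 24 lower. With the clock genes they were 1 member, 2 further immediate early genes and 2 partners. Without both knockout 3 and 5, chosen after seeing the data, they were 1 member, 1 further immediate early gene, 0 partners, 1 input gene, 390 higher and 271 lower. The causes of these changes were not tested.

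Leaving out each library in turn gave 1 to 4 members, 1 to 8 further immediate early genes, 3 to 9 heat shock genes, 1 to 2 partners, 0 input genes, 2 to 5 targets, 436 to 1091 genes higher and 357 to 679 lower. The higher count was 495 without wild type 1, 436 without wild type 5, 538 without knockout 1, 572 without knockout 3 and 529 without knockout 5. Jun ranged from -0.23 (without wild type 2) to 0.074 (without knockout 1) in log2 fold change. With the replicate number as a block, 2 members (Fos and Ier3) and 2 partners were called, with a limma adjusted p of 0.0548 for Junb and 0.0893 for Egr1. The deviations of same-numbered libraries had correlations of -0.24 to 0.42, and 1 of 5 correlated best with its own number. The labels name no pairing, and so few values cannot show whether same-numbered libraries share more than a number. Depth limits Fosb and Fosl1, which rest on under 50 fragments in most libraries.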
